A study of Mus musculus with 9 samples.

Results

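Genes that keep thiols reduced and remove peroxides were examined in MIN6 cells, insulin-producing cells from a mouse insulinoma that often stand in for pancreatic beta cells in culture. The set held 40 genes taken from a list of names by their role in these pathways, out of 52408 genes summed from the deposited transcript table. It covered NRF2 and its inhibitor, the thioredoxin system, the peroxiredoxins, glutathione synthesis and reduction, and the glutaredoxins. Enzymes that act on superoxide and peroxide, glutathione transferases and pentose phosphate enzymes, grouped here as NADPH supply, completed it. Of the 40 genes, 34 reached at least 1 TPM in at least 3 of the 9 libraries and were tested, and 6 did not.

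NRF2, the product of Nfe2l2, is a transcription factor held low by KEAP1, which directs it to degradation until electrophiles or oxidants modify KEAP1. It then binds antioxidant response elements with a small MAF partner and switches on genes of the thioredoxin and glutathione systems. Thioredoxin and glutathione pass electrons from NADPH to peroxiredoxins, glutaredoxins and glutathione peroxidases, which reduce peroxides and oxidised proteins. Pancreatic beta cells are known for low levels of catalase and glutathione peroxidase and are held to rely more on peroxiredoxins and thioredoxin.

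Total RNA was sequenced from 3 groups of MIN6 cells, with 3 libraries each. The EGCG group was given epigallocatechin gallate, a green tea catechin, upon overexpression of the orphan nuclear receptor Nr4a1. The overexpression group overexpressed Nr4a1 without EGCG, and the control group was untransfected. The sources used here give no dose, time or vehicle for EGCG, and no promoter or transfection method for the construct. Because the control cells were untransfected, transfection and Nr4a1 cannot be told apart in any comparison with control. Since no label states that the libraries of a group came from separate cultures, the p-values speak only for the spread among these libraries, which may be technical.

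Nr4a1 was at 46.3, 60.9 and 54.5 TPM in the EGCG libraries, at 128.3, 122.5 and 165.2 TPM in the overexpression libraries and at 0.63, 0.78 and 0.76 TPM in the control libraries. EGCG libraries thus held less Nr4a1 than overexpression libraries (adjusted p = 3.71e-05 by limma with Benjamini-Hochberg adjustment, log2 fold change -1.34), so the compound and the level of Nr4a1 differed together. All 8 beta cell markers read here reached 1 TPM in at least 1 library. Their summed level was 3991 to 4328 TPM in the EGCG group, 5765 to 6049 TPM in the overexpression group and 3721 to 3878 TPM in control. Iapp and Ins1 made up most of it, at means of 3248 and 2030 TPM with overexpression. Mafa averaged 33.3, 38.7 and 62.9 TPM and Slc2a2 3.14, 0.647 and 1.07 TPM in the same order of groups. The other markers averaged higher with overexpression than in control. The alpha cell markers Gcg and Irx2 also reached 1 TPM, and Gcg averaged 304.4 TPM with EGCG, 759.3 TPM with overexpression and 322.8 TPM in control. All markers of delta, acinar, ductal, fibroblast, macrophage and endothelial cells stayed under 1 TPM in every library. Chemoreceptor genes summed to 10.3 to 15.4 TPM in the EGCG group, 5.75 to 6.82 TPM in the overexpression group and 66.5 to 131.3 TPM in control, and small RNA genes took 47.9 to 49.5%, 49.4 to 50.1% and 43.6 to 45.1% of the TPM in the same order of groups. The part of these differences in the results was not tested. TPM is a length-corrected share of a library's transcripts and does not hold the number of reads, so depth is unknown and no counting error is given.

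To show which of the genes carry the letters of an antioxidant response element near their start, the core TGACNNNGC was searched on both strands of RefSeq promoter windows of the build GRCm38.p6, each reaching from 250 bases before to 50 bases after a gene's start. Windows were found for 35 of the 40 genes; Gclc, Prdx6, Gsta4, Msra and Gsr had none. The core lay in a window of 10 genes, Nfe2l2, Txnrd1, Srxn1, Prdx1, Gclm, Sod1, Mgst1, Gstm5, G6pdx and Pgd. Counted by window, it was in 10 of 47 windows (21.3%), beside 4071 of 32851 windows of all genes (12.4%). The stretches below are those of the genes that passed the test between overexpression and control, with 10 bases on each side, read along the strand that holds the core and with the core in capitals.
Txnrd1 at chr10:82859104-82859132, minus strand: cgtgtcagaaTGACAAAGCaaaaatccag
Srxn1 at chr2:152105542-152105570, minus strand: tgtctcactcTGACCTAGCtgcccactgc
Prdx1 at chr4:116685456-116685484, minus strand: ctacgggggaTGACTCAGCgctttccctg
Gclm at chr3:122245413-122245441, minus strand: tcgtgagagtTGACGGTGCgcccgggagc
Pgd at chr4:149166061-149166089, minus strand: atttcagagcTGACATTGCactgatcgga
Nfe2l2 at chr2:75704885-75704913, minus strand: tcagcccaccTGACTCCGCcatgccccgg
Gstm5 at chr3:107895802-107895830, plus strand: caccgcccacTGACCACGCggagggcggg

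Of the genes with a window, the core was in 5 of 15 that rose with overexpression, in 2 of 6 that fell and in 2 of 8 tested genes that passed in neither direction. The Pgd core lies in a window at whose start, within 250 bases, no transcript of the annotation used begins. A match of letters is a description of the window and does not show that a factor binds there.

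The first comparison set Nr4a1 overexpression against untransfected control. The thioredoxin reductases Txnrd1 and Txnrd2, Gclm and Gss of glutathione synthesis, and Taldo1 and Pgd of the pentose phosphate pathway were higher with overexpression. Catalase, glutathione peroxidase 4, glutaredoxin and 2 glutathione transferases of the mu class were lower. Of the 34 tested genes 16 rose, 6 fell and 12 did not pass (limma on log2(TPM + 1), with the Benjamini-Hochberg threshold of 0.05 over all 11950 tested genes). Among all tested genes 38.2% rose and 21.3% fell, 59.5% in all, so the share of 64.7% called here was close to that of genes in general. Between these groups 17 of the 34 genes were higher in all overexpression libraries and 10 lower in all, without overlap, beside 41.3% and 23.6% of all tested genes (65.0% in all). The median log2 fold change was 0.20 over the 34 genes and 0.10 over all tested genes. The split depended on the scale: with median-ratio scaling, which set the median of all genes to 0, it was 11 higher and 10 lower, with quantile normalization also 11 and 10, and on nuclear protein-coding genes alone 13 and 10. The calls of Txn1, Prdx4, Gstp1, Gsr and Pgd ended under at least 1 alternative, and the other 17 held under all that were run. In bulk RNA, a change in the make-up of the cells and a change in RNA per cell cannot be told apart.

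The second comparison set EGCG upon overexpression against overexpression alone. The thioredoxin reductases Txnrd1 and Txnrd2, Gclm and Gss of glutathione synthesis, and transaldolase were lower with EGCG. Glutathione peroxidase 4, glutaredoxin and 3 glutathione transferases were higher. Of the 34 genes 7 rose, 14 fell and 13 did not pass (limma, Benjamini-Hochberg adjusted p under 0.05). Among all tested genes 18.8% rose and 34.1% fell, 53.0% in all, beside 61.8% of these genes. The EGCG libraries lay above all overexpression libraries in 9 genes and below all of them in 14, beside 23.2% and 41.4% of all tested genes (64.6% in all). The medians were -0.11 over the 34 genes and -0.09 over all tested genes. With median-ratio scaling the split was 10 higher and 11 lower, with quantile normalization 9 and 8, and on nuclear protein-coding genes alone, where the median of all genes was 0.03, it was 11 and 10. Both comparisons use the same overexpression libraries, so a high value in those libraries enters them with opposite signs, and the values of each comparison are given side by side below.

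**Figure D1:**
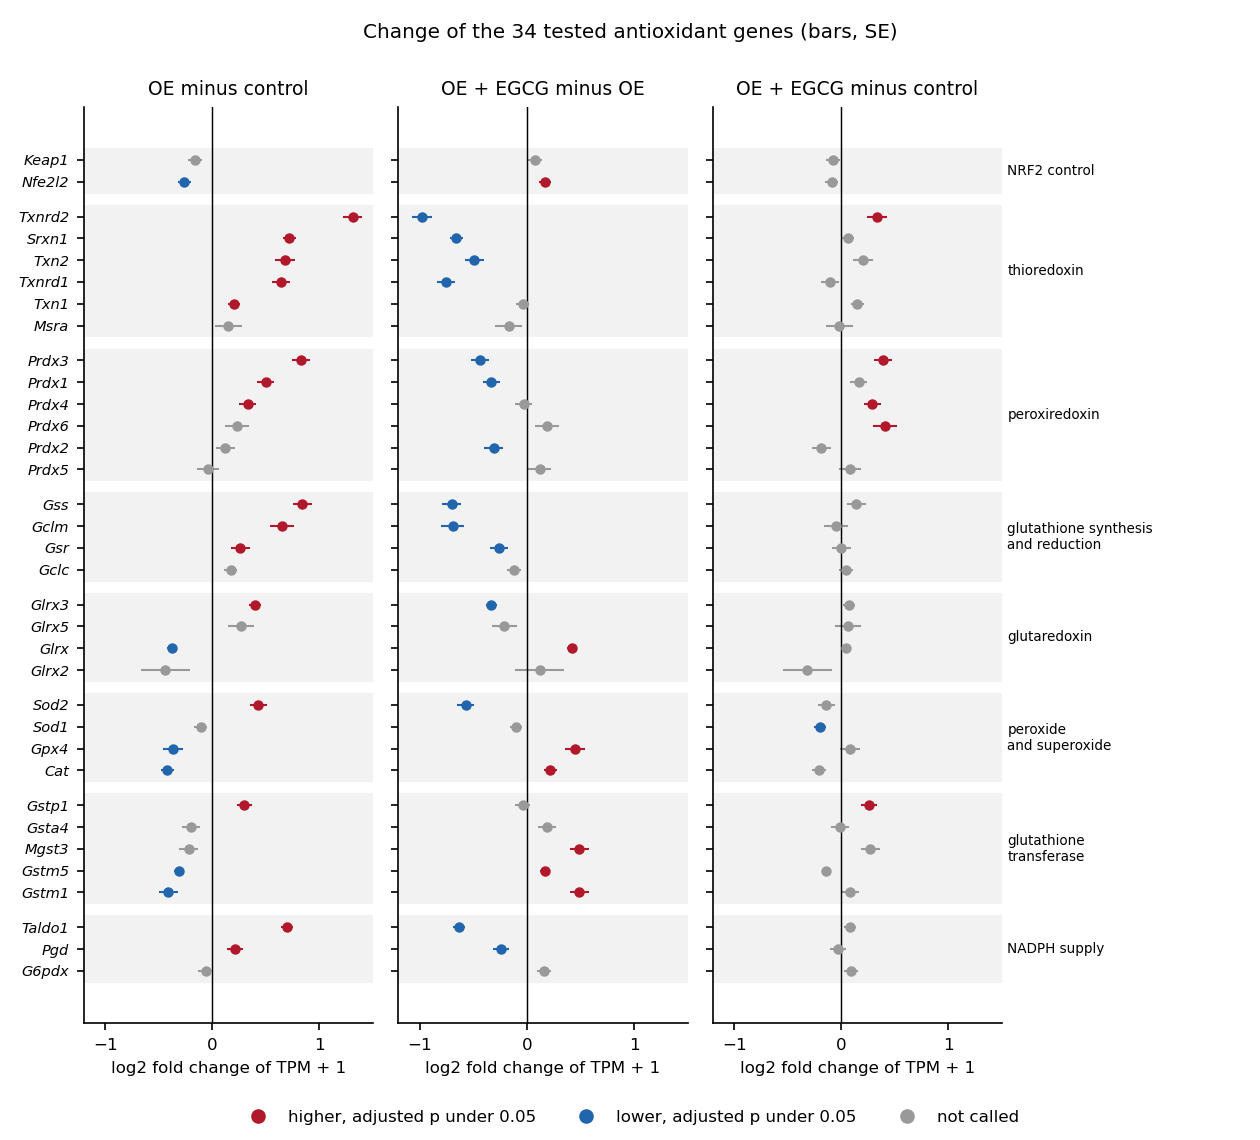
Log2 fold change of TPM + 1 (horizontal axes) for the 34 tested antioxidant genes by role, for overexpression (OE) minus control, EGCG with overexpression minus overexpression, and EGCG with overexpression minus control; points are limma estimates, bars are SE, and colour marks the call. The thioredoxin reductase Txnrd2 lies farthest from 0 in the first panel at 1.31 and in the second at -0.98, and in the third panel all points lie between -0.32 and 0.41.

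Of the 8 roles, the thioredoxin system had the median log2 fold change farthest from 0 in both comparisons by gene sums. On protein-coding transcripts alone, glutathione synthesis and reduction lay slightly farther from 0 with EGCG against overexpression. The 6 thioredoxin genes summed to 93.7 ± 5.55 TPM with EGCG, 126.0 ± 2.3 TPM with overexpression and 87.6 ± 2.92 TPM in control (SD, n = 3 each). Of the 6, 5 rose with overexpression (median log2 fold change 0.66, and 0.50 with quantile normalization) and 4 fell with EGCG (median -0.57), and none was called in the other direction. Over all tested genes, 38.2% rose with overexpression and 34.1% fell with EGCG. Txnrd2, the selenoprotein that reduces mitochondrial thioredoxin, was at 3.39, 3.81 and 4.04 TPM in the EGCG libraries, at 8.56, 8.09 and 8.39 TPM in the overexpression libraries and at 2.54, 2.48 and 3.34 TPM in the control libraries. The 3 groups did not overlap, with overexpression highest and control lowest. Overexpression exceeded control by 1.31 ± 0.0915 on the log2 scale (SE), a ratio of means of 3.0, and EGCG differed from overexpression by -0.98 ± 0.0915 (limma, Benjamini-Hochberg adjusted p = 5.29e-06 and 3.72e-05). On protein-coding transcripts alone, an alternative chosen after the data were seen, these values were 0.69 and -0.51.

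Txnrd1, the cytosolic thioredoxin reductase, and Srxn1, the sulfiredoxin that repairs over-oxidised peroxiredoxins, are textbook NRF2 targets and are described by library because their windows hold the core shown above, a choice made after their values were seen. Txnrd1 was at 19.2, 21.8 and 20.0 TPM in the EGCG libraries, 35.7, 33.3 and 35.8 TPM in the overexpression libraries and 21.9, 24.8 and 19.6 TPM in the control libraries. Srxn1 was at 8.56, 10.03 and 8.71 TPM with EGCG, 14.7, 15.0 and 15.1 TPM with overexpression and 8.78, 8.48 and 8.69 TPM in control. In both genes the overexpression libraries stood above all others, while EGCG and control overlapped. Txnrd1 rose by 0.64 on the log2 scale with overexpression and fell by 0.75 with EGCG, and Srxn1 rose by 0.72 and fell by 0.66 (limma, Benjamini-Hochberg adjusted p between 1.46e-05 and 0.000182). Txn2, the mitochondrial thioredoxin, averaged 13.0 ± 1.65 TPM with EGCG, 18.5 ± 0.922 TPM with overexpression and 11.2 ± 0.835 TPM in control (log2 fold changes 0.68 with overexpression and -0.49 with EGCG against overexpression alone, both called).

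Txn1, the cytosolic thioredoxin and the most abundant of the 6, changed far less. It was at 43.8, 46.1 and 46.7 TPM in the EGCG libraries, 47.1, 46.3 and 47.6 TPM in the overexpression libraries and 38.6, 39.9 and 44.1 TPM in the control libraries. Overexpression lay above control in every library (log2 difference 0.20 ± 0.0578 SE; adjusted p = 0.0151 by limma with Benjamini-Hochberg adjustment). That call ended with median-ratio scaling at 0.08, with quantile normalization and on nuclear protein-coding genes alone, and the lowest value of any alternative was 0.02. It also ended without control replicate 1 or 2 or overexpression replicate 3 (0.16 to 0.19). EGCG and overexpression overlapped (log2 fold change -0.04, and 0.06 with median-ratio scaling; adjusted p = 0.546 by limma with Benjamini-Hochberg adjustment). Under the alternatives this fold change reached up to 0.16 and was never called. Msra, which reduces oxidised methionine, had a mean near 2 TPM in each group and passed in no comparison.

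**Figure D2:**
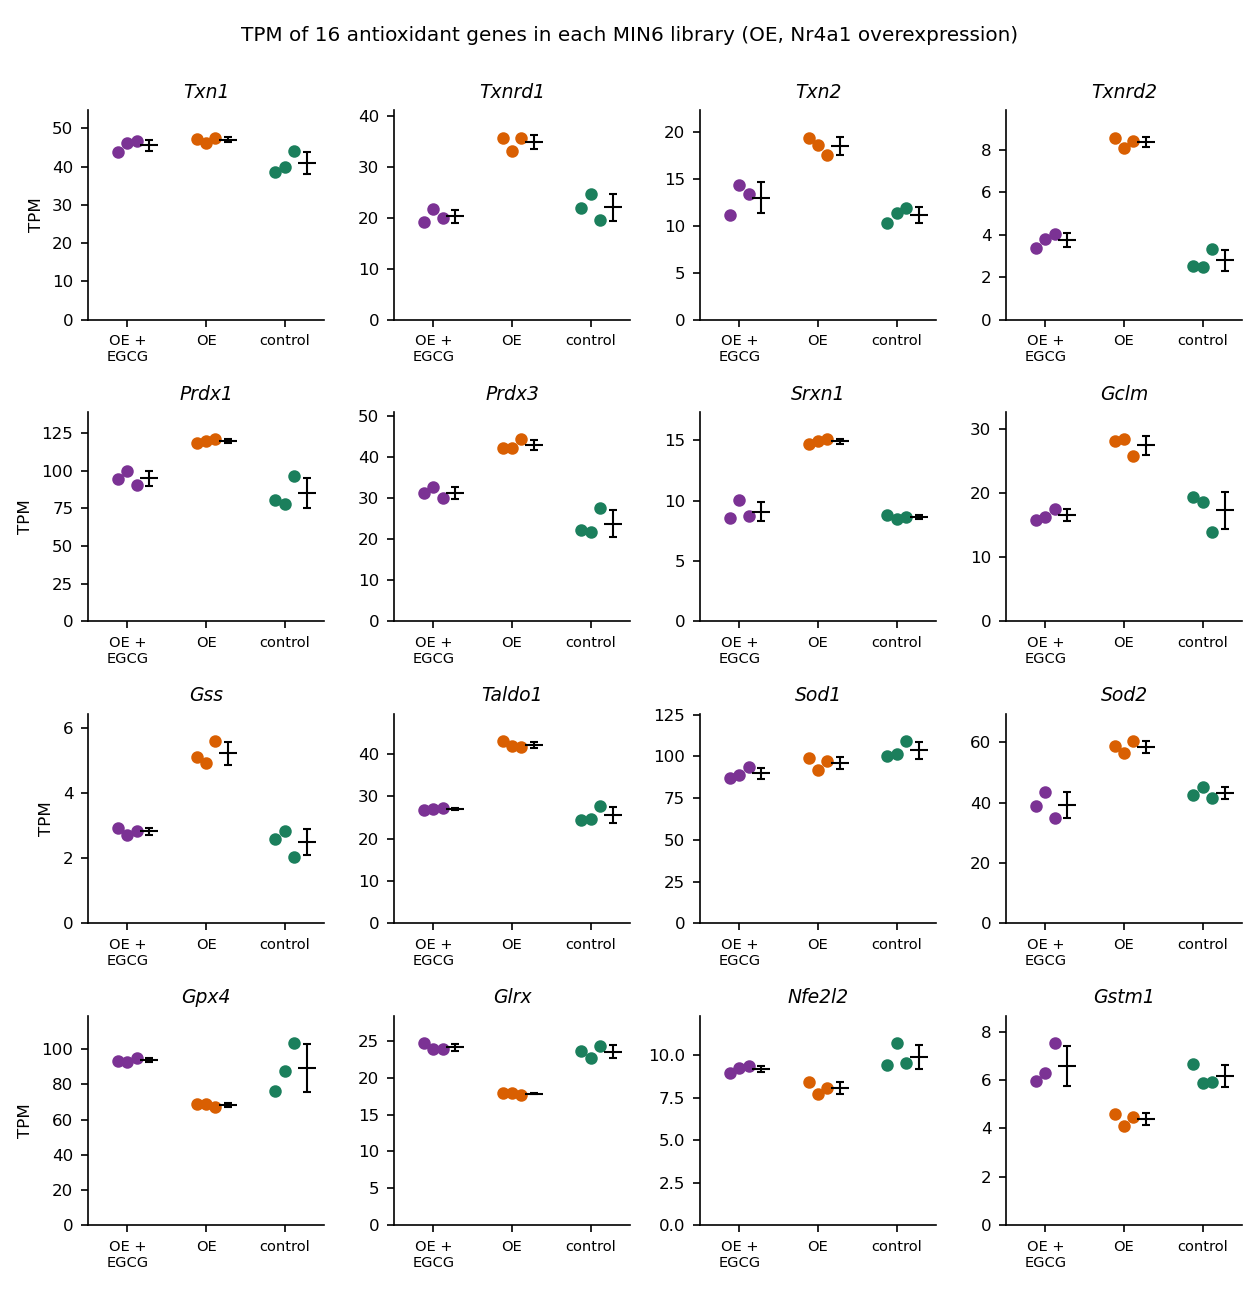
TPM (vertical axes, starting at 0) of 16 antioxidant genes in each library of the EGCG with overexpression, overexpression (OE) and control groups; points are libraries, and the bars beside them are mean and SD of 3. In Txnrd1, Txnrd2, Srxn1, Gss and Taldo1 the overexpression libraries stand above all others, and in Gpx4, Glrx, Nfe2l2 and Gstm1 they stand below all others.

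The peroxiredoxins, thiol peroxidases that thioredoxin recharges, summed to 366.6 ± 10.1 TPM with EGCG, 426.1 ± 8.37 TPM with overexpression and 344.6 ± 12.4 TPM in control (SD, n = 3 each), the most of any of the 8 roles. Of 6 genes 3 rose with overexpression and none fell (median 0.28), and 3 fell with EGCG and none rose (median -0.17, but 0.02 with quantile normalization). Prdx3, the mitochondrial peroxiredoxin, was at 31.1, 32.7 and 29.9 TPM with EGCG, 42.1, 42.1 and 44.2 TPM with overexpression and 22.2, 21.7 and 27.5 TPM in control. The groups did not overlap, and EGCG lay between the others. Prdx3 rose by 0.83 ± 0.085 with overexpression (SE, log2 scale) and differed by -0.44 ± 0.085 between EGCG and overexpression (limma, Benjamini-Hochberg adjusted p = 4.42e-05 and 0.00216). With quantile normalization the second value was -0.25 and no longer called. Prdx1, a cytosolic peroxiredoxin, averaged 94.9 ± 4.85 TPM with EGCG, 119.7 ± 1.16 TPM with overexpression and 85.0 ± 9.94 TPM in control (log2 fold changes 0.50 and -0.33, both called; the second call ended with median-ratio scaling at -0.23 and with quantile normalization at -0.13).

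Prdx4, the peroxiredoxin of the endoplasmic reticulum, rose with overexpression (log2 fold change 0.33) and did not pass with EGCG against overexpression (-0.03, but 0.07 with median-ratio scaling). Prdx2, the other main cytosolic form and by gene sum the most abundant of the 40 genes, was at 105.9, 110.9 and 118.7 TPM with EGCG, 145.7, 132.2 and 138.8 TPM with overexpression and 132.5, 141.5 and 111.8 TPM in control. Overexpression and control overlapped (log2 fold change 0.12, and -0.09 with quantile normalization; adjusted p = 0.283), while EGCG lay below overexpression in every library (-0.31, adjusted p = 0.0156, a call that ended at -0.10 with quantile normalization and at -0.28 and -0.27 without overexpression or EGCG replicate 1; limma with Benjamini-Hochberg adjustment). Prdx5, found in several compartments, and Prdx6, which uses glutathione in place of thioredoxin, passed in neither comparison. 

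Glutathione is made in successive steps by glutamate-cysteine ligase and glutathione synthetase and is kept reduced by glutathione reductase. The 4 genes of this role summed to 32.5 ± 0.964 TPM with EGCG, 48.2 ± 1.7 TPM with overexpression and 32.8 ± 2.36 TPM in control, with 3 higher and none lower with overexpression (median 0.45) and 3 lower and none higher with EGCG (median -0.48). The shares over all tested genes were 38.2% higher with overexpression and 34.1% lower with EGCG. Gss, the synthetase of the last step, was at 2.92, 2.7 and 2.82 TPM with EGCG, 5.11, 4.92 and 5.58 TPM with overexpression and 2.59, 2.83 and 2.04 TPM in control. Gclm, the regulatory subunit of glutamate-cysteine ligase, was at 15.8, 16.3 and 17.6 TPM with EGCG, 28.1, 28.4 and 25.8 TPM with overexpression and 19.3, 18.6 and 14.0 TPM in control. In both genes overexpression stood above all other libraries, and EGCG overlapped control. On the log2 scale Gss differed by 0.84 ± 0.0881 (SE) between overexpression and control and by -0.70 ± 0.0881 between EGCG and overexpression, and Gclm by 0.65 ± 0.108 and -0.69 ± 0.108 (limma, Benjamini-Hochberg adjusted p between 5.21e-05 and 0.000772). Gclc, the catalytic subunit of the same ligase, did not pass in either comparison (0.17, adjusted p = 0.0506, and -0.12, adjusted p = 0.139, by limma with Benjamini-Hochberg adjustment). Gsr, the glutathione reductase, was called at 0.26 and -0.26. Both calls ended with median-ratio scaling at 0.15 and -0.17. The first also ended without control or overexpression replicate 1 or 2 (0.17 to 0.26), and the second without any of the 6 libraries compared (-0.24 to -0.28).

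The glutaredoxins split. Glrx3, which takes part in iron-sulfur cluster handling, was at 26.7, 26.7 and 27.0 TPM with EGCG, 34.6, 33.3 and 33.8 TPM with overexpression and 25.0, 24.0 and 27.5 TPM in control. Glrx, the cytosolic enzyme that removes glutathione from proteins, was at 24.7, 23.9 and 23.8 TPM with EGCG, 17.9, 17.9 and 17.7 TPM with overexpression and 23.6, 22.7 and 24.4 TPM in control, values given because it moved against Glrx3. Overexpression was thus the highest group for Glrx3 (log2 fold changes 0.40 and -0.33) and the lowest for Glrx (-0.38 and 0.42), apart from every other library in both genes. All 4 values passed (limma, Benjamini-Hochberg adjusted p between 8.66e-05 and 0.00104), but with quantile normalization the value of Glrx3 for EGCG was -0.14 and not called. The mitochondrial forms Glrx2 and Glrx5 passed in neither comparison. The 4 genes summed to 60.8 ± 1.33 TPM with EGCG, 61.9 ± 2.06 TPM with overexpression and 60.6 ± 3.5 TPM in control.

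Among enzymes that act on superoxide and peroxide, mitochondrial superoxide dismutase Sod2 averaged 39.2 ± 4.32 TPM with EGCG, 58.5 ± 1.91 TPM with overexpression and 43.1 ± 1.94 TPM in control (log2 fold changes 0.43 and -0.57, both called). Sod1, the cytosolic copper-zinc dismutase and the most abundant here, was at 87.0, 88.7 and 93.6 TPM with EGCG, 98.9, 91.8 and 97.5 TPM with overexpression and 100.1, 101.5 and 109.1 TPM in control. Between overexpression and control it did not pass at -0.11, but was called lower under the other scalings (-0.19 to -0.32). Between EGCG and overexpression it was at -0.10, and at 0.10 with quantile normalization. Gpx4, the selenoprotein that reduces lipid hydroperoxides, averaged 93.6 ± 1.16 TPM with EGCG, 68.3 ± 0.956 TPM with overexpression and 89.1 ± 13.6 TPM in control. It fell by 0.37 with overexpression and rose by 0.45 with EGCG (log2 values; limma, Benjamini-Hochberg adjusted p = 0.00769 and 0.00327). Gpx4 has 2 near-identical annotated copies with up to 99.7% identity, of which Gpx4-ps2 was listed at means of 4.83, 3.72 and 3.87 TPM in the same order of groups, and whether reads were shared between them was not tested. Catalase, Cat, averaged 5.18 ± 0.381 TPM with EGCG, 4.31 ± 0.203 TPM with overexpression and 6.12 ± 0.283 TPM in control (-0.42 and 0.22, both called), and the second call ended without overexpression replicate 2 or 3 or EGCG replicate 3 (0.17 to 0.21).

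The other 4 glutathione peroxidases of the set were under the filter. Gpx1, the common cytosolic form, was at 0.27, 0.21 and 0.09 TPM with EGCG, 0.20, 0.31 and 0.30 TPM with overexpression and 0.06, 0.24 and 0.12 TPM in control. Gpx3, the secreted form, was at 0.04, 0.07 and 0.02 TPM with EGCG, 0.01, 0.02 and 0 TPM with overexpression and 0.16, 0.13 and 0.12 TPM in control. Gpx4 was thus the only member of this family in the set above 1 TPM. Gpx7 was at or under 0.04 TPM in every library, and was listed at 0, 0 and 0.02 TPM with EGCG, 0.02, 0 and 0 TPM with overexpression and 0.04, 0 and 0.03 TPM in control. Gpx8 was at 0.03, 0.07 and 0 TPM with EGCG, 0.07, 0 and 0.05 TPM with overexpression and 0 TPM, 0.20 and 0.24 TPM in control. Both encode thiol peroxidases of the endoplasmic reticulum, where Prdx4, at means of 60.8 to 76.3 TPM, was the gene of the set with transcript.

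Glutathione transferases couple glutathione to electrophiles. Of 5 tested genes 1 rose and 2 fell with overexpression (median -0.22), beside 38.2% and 21.3% of all tested genes. With EGCG 3 rose and none fell (median 0.19), beside 18.8% and 34.1%. Gstm1 averaged 6.59 ± 0.832 TPM with EGCG, 4.39 ± 0.258 TPM with overexpression and 6.15 ± 0.456 TPM in control (log2 fold changes -0.41 and 0.49), and Gstm5 19.3 ± 0.338, 17.0 ± 0.562 and 21.4 ± 0.395 TPM (-0.31 and 0.17). The microsomal Mgst3 passed with EGCG against overexpression (0.49 ± 0.0867 SE; limma, Benjamini-Hochberg adjusted p = 0.00139). Between overexpression and control it did not pass (-0.22, adjusted p = 0.0523 by limma with Benjamini-Hochberg adjustment), though overexpression lay below control in every library. That difference was called under 9 of 21 alternatives. Gstp1, the pi-class enzyme and the most abundant, was at 53.5, 48.7 and 45.2 TPM with EGCG, 49.9, 49.98 and 51.4 TPM with overexpression and 37.4, 42.4 and 43.0 TPM in control. Both groups with the construct lay above control in every library, and overlapped each other (log2 fold changes 0.30, ended with median-ratio scaling, and -0.04, or 0.06 with that scaling). Gsta4, an alpha-class enzyme, passed in neither comparison (-0.20 and 0.19) but was called at -0.30 and 0.28 with median-ratio scaling. Mgst1 was at 0.07, 0.03 and 0.08 TPM with EGCG, listed at 0 in all 3 overexpression libraries, and at 0.44, 0.14 and 0 TPM in control, and was not tested.

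NADPH powers both thioredoxin reductase and glutathione reductase. The 3 genes grouped as its supply summed to 39.6 ± 1.11 TPM with EGCG, 55.2 ± 1.23 TPM with overexpression and 37.8 ± 1.54 TPM in control. Most of the difference lay in Taldo1, which does not itself form NADPH. Taldo1, the transaldolase of the non-oxidative pentose phosphate pathway, was at 26.8, 27.0 and 27.2 TPM with EGCG, 43.0, 41.9 and 41.7 TPM with overexpression and 24.5, 24.6 and 27.7 TPM in control. Overexpression stood well above the other groups, which overlapped (log2 fold changes 0.70 ± 0.0549 SE and -0.63 ± 0.0549; limma, Benjamini-Hochberg adjusted p = 9.7e-06 and 2.7e-05). Pgd, the second NADPH-forming enzyme of the oxidative branch, was called at 0.21 and -0.24, calls that ended with median-ratio scaling at 0.10 and -0.15. The first also ended without control replicate 1 or 3, any overexpression library or EGCG replicate 2 (0.15 to 0.23), and the second without overexpression replicate 1 or 3 or EGCG replicate 1 (-0.16 to -0.24). G6pdx, the entry enzyme of that branch, passed in neither comparison (-0.06 and 0.16), though the second was called at 0.25 with median-ratio scaling. Of the 3 genes 2 rose with overexpression (median 0.21) and 2 fell with EGCG (median -0.24), G6pdx being the gene not called. The shares of all tested genes were 38.2% and 34.1%.

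Of the genes that control NRF2, the set held Nfe2l2 and Keap1. Nfe2l2 was at 8.98, 9.27 and 9.36 TPM with EGCG, 8.43, 7.75 and 8.05 TPM with overexpression and 9.44, 10.7 and 9.53 TPM in control. Overexpression was the lowest group and control the highest, with no overlap (log2 fold changes -0.26 ± 0.0597 SE and 0.17 ± 0.0597; limma, Benjamini-Hochberg adjusted p = 0.00445 and 0.0384). The second call ended without overexpression replicate 2 or 3 or without any of the EGCG libraries (0.14 to 0.19), with the replicate block and without the filter (0.17 in both). The Nfe2l2 transcript was lower in the group where Txnrd1, Srxn1 and Gclm were highest and Gstm1 and Gstm5 lowest. Of the 12 tested NRF2 targets of the further list described below, 7 rose and 3 fell with overexpression. NRF2 protein was not measured. Keap1 averaged 7.49 ± 0.767 TPM with EGCG, 7.02 ± 0.0971 TPM with overexpression and 7.97 ± 0.181 TPM in control and passed in neither comparison (-0.16, adjusted p = 0.0613, and 0.08, adjusted p = 0.343, by limma with Benjamini-Hochberg adjustment), but was called at -0.27 and 0.17 with median-ratio scaling. Nqo1, the quinone reductase often read as an NRF2 target, was at 0.04, 0 and 0.05 TPM with EGCG, 0.07, 0.02 and 0.03 TPM with overexpression and 0 TPM, 0.11 and 0.08 TPM in control, under the filter in every library.

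By compartment, the 6 mitochondrial genes (Txn2, Txnrd2, Prdx3, Sod2, Glrx2 and Glrx5) had a median log2 fold change of 0.56 with overexpression. Of these 4 rose and none fell, beside 38.2% and 21.3% of all tested genes, whose median was 0.10. With EGCG against overexpression their median was -0.46, and 4 fell and none rose, beside 34.1% and 18.8% of all tested genes, whose median was -0.09. The 19 tested cytosolic genes had medians of 0.21 and -0.12. Another 5 tested genes were placed in several compartments and counted apart, among them Gpx4, Prdx5 and Gsr, with medians of -0.04 and 0.12. The difference between the compartments was not tested.

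The comparison of EGCG upon overexpression with control asked where the doubly treated cells stood against untransfected cells. Most of the set was not told apart between these groups. The EGCG libraries lay above all control libraries in 6 genes and below all of them in 4, beside 21.0% and 13.8% of all tested genes (34.8% in all). Of 34 genes 5 rose, 1 fell and 28 did not pass (limma, Benjamini-Hochberg adjusted p under 0.05), 17.6% in all, beside 18.2% of all tested genes, of which 11.1% rose and 7.10% fell. The genes called higher were Prdx6 (0.41), Prdx3 (0.39), Txnrd2 (0.33), Prdx4 (0.29) and Gstp1 (0.26), and Sod1 was lower (-0.20), with adjusted p between 0.0183 and 0.0417. Prdx6, which passed in neither of the other comparisons, averaged 22.6 ± 1.69 TPM with EGCG, 19.7 ± 1.43 TPM with overexpression and 16.8 ± 3.02 TPM in control. None of the 6 calls held under every alternative run, and leaving out a library moved them: without control replicate 1 or 2, or EGCG replicate 1 or 2, 0 genes were called higher by limma (6 to 8 at an unadjusted p under 0.05). Without overexpression replicate 1, 2 or 3, which enter through the shared spread, 2, 1 and 1 were called higher, and without control replicate 3, 10 were. A missing call does not show that the levels were alike: the SE of these differences was 0.0452 to 0.229 on the log2 scale.

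The deposited table is per transcript, and the values above sum all transcripts of a gene. In 10 of the 34 genes, transcripts annotated as retained introns, processed transcripts or targets of nonsense-mediated decay held more than 10% of the TPM, and in Sod2 (86.3%), Prdx6 (72.2%) and Prdx2 (59.8%) more than 50%. In Txnrd2 that share was 19.2% ± 4.24 with EGCG, 43.5% ± 4.83 with overexpression and 7.58% ± 13.1 in control (SD, n = 3 each), so part of the rise of the gene sum lay in transcripts not annotated as protein-coding. Its main coding transcript, Txnrd2-203, averaged 1.77 ± 0.197 TPM with EGCG, 3.61 ± 0.445 TPM with overexpression and 1.17 ± 0.07 TPM in control. In Prdx2 the retained-intron transcript Prdx2-205 was at 58.5 ± 4.57 TPM with EGCG, 72.2 ± 5.81 TPM with overexpression and 86.9 ± 17.9 TPM in control, while the coding Prdx2-201 was at 33.1 ± 2.32, 47.7 ± 1.84 and 25.3 ± 3.14 TPM in the same order.

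With protein-coding transcripts alone, an alternative chosen after these values were seen, 18 genes rose and 7 fell with overexpression, beside 44.2% and 21.0% of the 10419 genes tested that way, and 8 rose and 15 fell with EGCG against overexpression, beside 18.1% and 41.4%. Prdx2 then rose with overexpression, at 51.0 ± 4.30 TPM with EGCG, 63.1 ± 1.64 TPM with overexpression and 38.5 ± 5.97 TPM in control (log2 difference 0.71 ± 0.102 SE; adjusted p = 0.000135 by limma with Benjamini-Hochberg adjustment). On this scale Prdx1 stood above Prdx2 in each group, at 92.5 TPM with EGCG, 117.8 TPM with overexpression and 81.6 TPM in control. The difference of Prdx2 between EGCG and control was then 0.41 and called, against -0.19 for the gene sum. In that comparison 5 genes rose and 2 fell, beside 13.6% and 10.2%. Glrx5 passed at 0.27 and -0.24, Prdx6 at 0.40 for EGCG against overexpression, and Sod2 kept its calls at 0.48 and -0.32. Gsr, with 45.1% of its TPM in other transcripts, was called at 0.43 and -0.33, and Pgd at 0.34 and -0.27. The calls of both ended under other alternatives, as given above. In Txnrd1, transcript Txnrd1-201 was at 10.9 ± 0.630 TPM with EGCG, 18.8 ± 1.59 TPM with overexpression and 6.26 ± 1.42 TPM in control, and Txnrd1-208 at 7.04 ± 0.898, 12 ± 0.699 and 11.4 ± 3.13 TPM in the same order. Both are coding and start within 27 bases of the RefSeq start whose window holds the core printed above, and their difference was not tested.

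**Figure D3:**
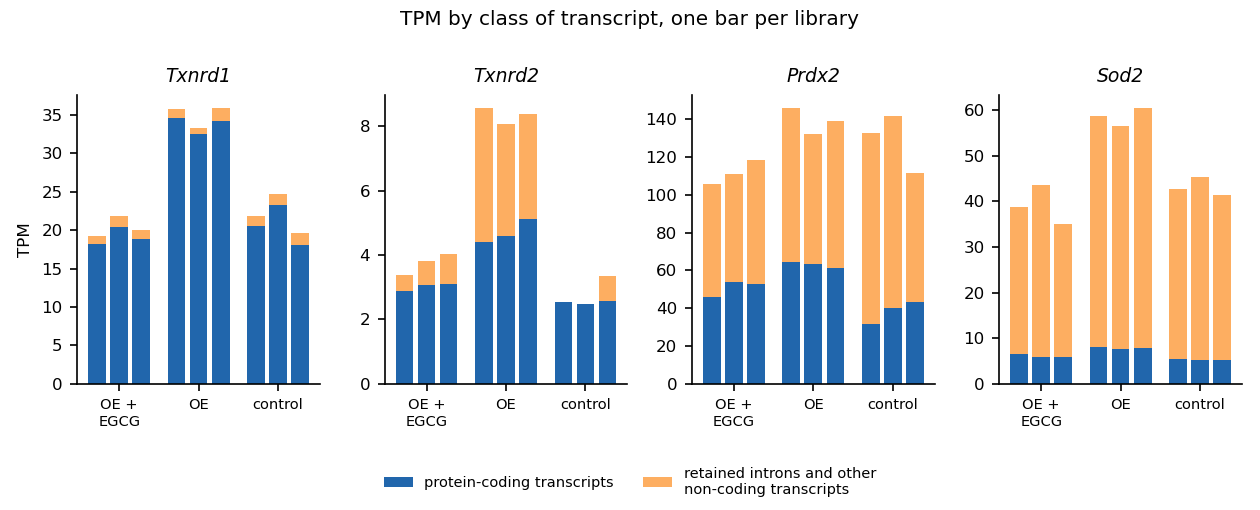
TPM (vertical axes) of Txnrd1, Txnrd2, Prdx2 and Sod2 in each library of the EGCG with overexpression, overexpression (OE) and control groups, split into protein-coding transcripts and other transcripts of the gene (stacked bars, 1 per library). Other transcripts hold most of Sod2, and in Txnrd2 they make up 43.5% of the gene with overexpression against 7.58% in control.

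Some of the genes share sequence with others. Prdx2 overlaps Junb and Rnaseh2a on the opposite strand, and Prdx5 overlaps Trmt112, Gss Acss2, Gclm Gm17494 and Keap1 Gm16754 in the same way. Of the Gclm transcripts, only Gclm-202 shares exonic bases with Gm17494, and it averaged at most 0.173 TPM in a group. In Gstm5-201 and G6pdx-201, 18.8% and 4.8% of the exonic bases lie in exons of a gene on the opposite strand. The strand setting of the counting is unknown here, so reads of these pairs may have been split. The values of these genes and of Txnrd2 are uncertain, though for Gclm only through Gclm-202. Gm16754, the transcript antisense to Keap1, averaged 5.99 ± 0.165 TPM with EGCG, 0.513 ± 0.124 TPM with overexpression and 4.42 ± 1.31 TPM in control. A search among annotated transcripts found near-identical copies, at 90% identity or more, for 12 of the 40 genes, and only Gpx4-ps2 among them exceeded 1 TPM. Copies outside the annotation were not searched.

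A further list of 91 genes of the same pathways, drawn up by role, gave 78 tested genes. With overexpression 31 rose and 17 fell, beside 38.2% and 21.3% of all tested genes, and with EGCG against overexpression 14 rose and 29 fell, beside 18.8% and 34.1%. Of 12 other NRF2 target genes 7 rose and 3 fell with overexpression, and 2 rose and 8 fell with EGCG. Of 16 genes for selenoproteins and their synthesis 10 rose and 2 fell with overexpression, and 10 fell and none rose with EGCG. Of 11 further genes of NADPH supply 1 rose and 5 fell with overexpression, and 5 rose and none fell with EGCG. Among 16 thioredoxin-like genes 4 rose and 3 fell with overexpression (median 0.1), and 3 rose and 5 fell with EGCG (median -0.12). Among 15 genes of glutathione use 6 rose and 2 fell, then 3 rose and 4 fell. Among 7 genes of NRF2 control 2 rose and 2 fell, then 1 rose and 1 fell. The 1 tested gene of superoxide and peroxide rose with overexpression and fell with EGCG.

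By the rule of a log2 fold change of at least 1, 6 of the further genes are named. Gsto1, a glutathione transferase of the omega class, was at 7.37, 6.76 and 6.95 TPM with EGCG, 21.8, 18.6 and 17.4 TPM with overexpression and 7.19, 6.39 and 6.71 TPM in control (log2 fold changes 1.38 ± 0.0824 SE and -1.33 ± 0.0824; limma, Benjamini-Hochberg adjusted p = 2.62e-06 and 3.86e-06). Akr1b3, an aldose reductase, Abcc4, an efflux transporter, and Selenos, a selenoprotein of the endoplasmic reticulum, also stood highest with overexpression. Their means were 19.4, 32.9 and 14.2 TPM for Akr1b3, 0.870, 2.97 and 0.837 TPM for Abcc4 and 10.9, 23.8 and 10.8 TPM for Selenos in the EGCG, overexpression and control groups. Maff, a small MAF protein that can pair with NRF2, and Nadk2, the mitochondrial NAD kinase, stood lowest with overexpression. Maff was at 5.99, 5.49 and 6.84 TPM with EGCG, 2.35, 2.36 and 2.03 TPM with overexpression and 6.83, 7.39 and 5.98 TPM in control (-1.25 ± 0.0922 SE and 1.13 ± 0.0922; limma, Benjamini-Hochberg adjusted p = 7.09e-06 and 1.85e-05). Nadk2 averaged 6.96 ± 0.147 TPM with EGCG, 2.99 ± 0.266 TPM with overexpression and 7.35 ± 0.971 TPM in control (-1.06 and 1.00). In all 6 genes the overexpression libraries stood apart from every other library. The thioredoxin reductase Txnrd3, outside the set and under that rule, went against Txnrd1 and Txnrd2. It averaged 2.21 ± 0.246 TPM with EGCG, 0.84 ± 0.052 TPM with overexpression and 2.5 ± 0.232 TPM in control (log2 fold changes -0.93 and 0.8, both called).

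**Figure D4:**
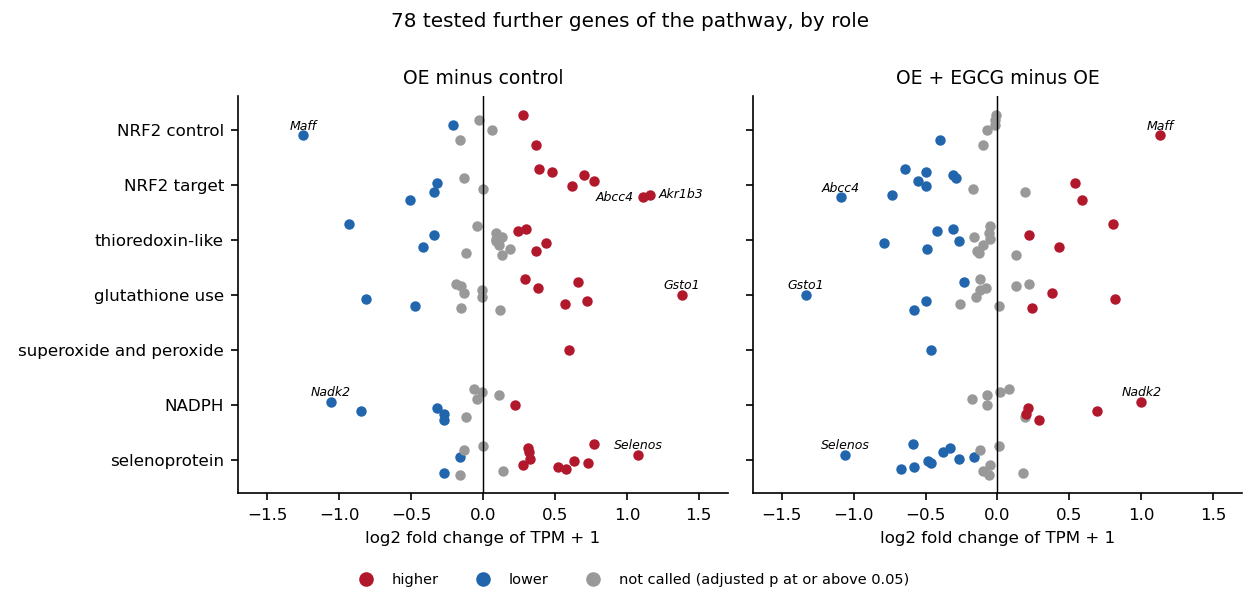
Log2 fold change of TPM + 1 (horizontal axes) of 78 further genes of the pathway by role (vertical axis), for overexpression (OE) minus control and EGCG with overexpression minus overexpression; each point is a gene, coloured by its call. Gsto1 lies farthest to the right at 1.38 in the first panel and farthest to the left at -1.33 in the second, and Maff the reverse at -1.25 and 1.13.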

How the data were processed

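RNA of 9 MIN6 libraries was extracted with RNeasy and prepared with a TruSeq Stranded Total RNA kit, per the labels' protocols. The authors deposited TPM values per transcript, made by them with STAR 2.7.1a and RSEM 1.2.31 on GRCm39 after bcl2fastq 2.20, FastQC 0.11.9 and cutadapt 2.8, per the submitters' processing notes. No annotation release, strand setting or filter was found in those notes. Transcript TPM was summed per gene with GENCODE M21, which matched 138346 of 142435 identifiers (97.13%). Transcripts without a match held 18.0 to 20.6% of TPM and were not counted, though every M21 transcript of the 40 genes was present. Genes that reached 1 TPM in 3 or more libraries were tested with limma 3.58.1 (R 4.3.3) on log2(TPM + 1). All 9 libraries entered a single fit with a variance trend, two-sided, with Benjamini-Hochberg adjustment over 11950 genes at 0.05. The pseudocount of 1 makes fold changes of low genes too small. The fit was tested on simulated data. Depth cannot be read from TPM, so precision is given by the SD over libraries and limma's SE. The members and lists were chosen with earlier results of these data known. Genes were given by library when called with a log2 fold change of at least 0.8, when highest of their role, or when under the filter. Further genes were named when called with a log2 fold change of at least 1, with Txnrd3 added because it went against Txnrd1 and Txnrd2. Txnrd1, Srxn1, Glrx and all genes given as means were chosen after their values were seen. Some marker and neighbouring genes are not reported here. Copies of the leading coding transcript of each gene were searched among GENCODE M21 transcripts with BLAST 2.17.0. Alternatives were other pseudocounts, filters, scalings, fits, each library left out, and protein-coding transcripts alone.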

Additional observations from a re-analysis of the deposited data

How the results depend on the processing

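Of the calls among the 34 genes, 17 of 22 between overexpression and control, 13 of 21 between EGCG and overexpression and 0 of 6 between EGCG and control held under every alternative run. With overexpression, 6 genes were lower, but median-ratio scaling gave 10, quantile normalization 10 and the fit on nuclear protein-coding genes alone 10. With EGCG against overexpression, 7 were higher and 14 lower, but 11 were higher on nuclear protein-coding genes and 8 lower with quantile normalization. With EGCG against control, 5 were higher and 1 lower. The numbers higher and lower there were 2 and 2 without the filter, 3 and 3 with median-ratio scaling, 8 and 0 on nuclear protein-coding genes, and 8 and 3 with library weights. The number lower was 2 with at least 5 TPM in 3 libraries, 2 with quantile normalization and 2 on protein-coding transcripts alone, and Prdx2 turned to 0.41 with the last of these. With only the 2 groups compared, limma called 0 higher and 0 lower (6 and 3 at an unadjusted p under 0.05). Leaving out each library in turn gave 0 to 10 higher and 0 to 2 lower with EGCG against control (6 to 12 and 3 to 6 unadjusted). It gave 14 to 16 higher and 6 to 8 lower with overexpression, and 5 to 8 higher and 11 to 14 lower with EGCG against overexpression. Deviations of same-numbered libraries correlated at -0.02 to 0.21, and those of differently numbered libraries at -0.24 to 0.12. With 3 libraries in each group, these values cannot decide whether equal replicate numbers were paired. With the replicate number as a block, 16 were higher and 7 lower with overexpression, 6 and 13 with EGCG against overexpression, and 3 and 0 with EGCG against control (7 and 3 unadjusted). The causes were not tested. Depth is unknown, so low genes such as Txnrd2 and Gss carry a counting error that cannot be given.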
